A study of Mus musculus and Homo sapiens with 14 samples.

Results

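Hox cluster genes are described here in 2 mouse cell lines, the oligodendrocyte precursor line Oli-neu and the medulloblastoma line MB1. Every gene whose symbol is Hoxa, Hoxb, Hoxc or Hoxd followed by a number was taken, which gave 39 of the 35288 genes listed for these lines. All 39 are protein-coding, out of 21810 protein-coding genes listed. The 38 described comprise 10 genes of the HoxA cluster, 10 of HoxB, 9 of HoxC and 9 of HoxD.

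The series holds 14 RNA sequencing libraries from 3 lines in 7 groups of 2 biological replicates. The 10 mouse libraries used here are Oli-neu grown with MB1, Oli-neu grown with the human Group 3 medulloblastoma line D341, and Oli-neu grown alone, followed by MB1 grown with Oli-neu and MB1 grown alone. In the co-cultures a membrane with pores of 0.4 µm, in inserts 30 mm wide, kept the lines apart in shared medium. Every group, monocultures included, grew in DMEM/F-12 with B-27 and N-2 and with EGF and bFGF at 20 ng/mL each. Oli-neu is a line of mouse oligodendrocyte precursors that, as background, was immortalised with an activated neu oncogene. MB1 came from tumours of Atoh1-cre:SmoM2 mice at postnatal day 12, in which Cre under the Atoh1 promoter, active in cerebellar granule neuron precursors, switches on a constitutively active Smoothened and thereby hedgehog signalling. Each mouse line is 1 line, so the 2 replicates of a group are cultures of the same cells. The D341 libraries were not analysed here.

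Expression is given in TPM, transcript abundances that are scaled for transcript length and sum to 1000000 in each library, so levels of different genes can be set side by side. Sequencing depth is unknown, since no counts are given, and a value of 0 is reported as listed at 0. None of 51 housekeeping genes was listed at 0 in any mouse library, and their lowest value was 1.18 TPM. In bulk RNA a change in the number of cells and a change in RNA per cell cannot be told apart. The Oli-neu and MB1 values come from separate tables and were tested only within each table, so the comparison of the lines is a description.

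The labels were set against marker genes. Oli-neu alone held the oligodendrocyte lineage factor Sox10 at 171 and 197 TPM and the precursor proteoglycan Cspg4 at 93.9 and 99.8 TPM, while Nkx2-2 was listed at 0 in all 6 Oli-neu libraries. MB1 alone held the granule lineage factors Zic1 at 84.3 and 63.7 TPM and Pax6 at 22.7 and 25.4 TPM. The granule precursor genes Atoh1, at 0 and 0.0143 TPM, and Barhl1, at 0 in both libraries, were at or near 0 in MB1 alone. The hedgehog effector Gli1 was at 0.178 and 0.129 TPM there. The hedgehog response list holds 5 genes. Its member Ptch1 was at 18.4 and 14.2 TPM in MB1 alone and 4.36 and 5.93 TPM in Oli-neu alone. Hhip was at 1.64 and 1.36 TPM in MB1 alone and 0.315 and 0.372 TPM in Oli-neu alone. Gli2 and Sfrp1 stayed below 1 TPM in both lines grown alone. Both labels were therefore met only in part. The summed level of 7 oligodendrocyte precursor markers was higher in MB1 alone, at 933 to 1095 TPM, than in Oli-neu alone, at 520 to 581 TPM. Of these markers Olig1 was at 655 and 833 TPM in MB1 alone and 167 and 187 TPM in Oli-neu alone, Olig2 at 246 and 228 TPM in MB1 alone and 64.7 and 76.0 TPM in Oli-neu alone, and Nkx2-2 at 9.52 and 9.94 TPM in MB1 alone. Sox10, in contrast, was at 0.882 and 0.466 TPM in MB1 alone. Markers of astrocytes, 6 genes, summed to 397 to 434 TPM in MB1 alone, above the 6 granule lineage markers at 118 to 131 TPM, and to 171 to 193 TPM in Oli-neu alone. The summed level of 6 microglial markers was at most 0.718 TPM in any mouse library. Principal component analysis of Oli-neu parted the libraries numbered 1 from those numbered 2 along its main axis (53.6% of the variance). In the MB1 table that axis held 49.8%, and replicate 2 of MB1 alone stood apart from the other 3 libraries.

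Hox genes encode homeodomain transcription factors that give cells along the head-to-tail axis their regional identity. The genes lie in order within each cluster, and genes with low paralogue numbers are expressed further towards the head than those with high numbers. In the developing brain Hox expression begins in the hindbrain, behind rhombomere 1. The cerebellum, where granule neuron precursors arise, forms from rhombomere 1, while oligodendrocyte precursors form at many levels from forebrain to spinal cord. Otx2, Gbx2 and En2 mark the Hox-free territory around the border between midbrain and hindbrain.

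Promoter sequences were available for 22 of the 38 genes in RefSeq annotation of the mouse build GRCm38.p6, as 24 windows. Shown are the 250 bases before the start of 3 genes that stand for the patterns in the data. Hoxa5 was the highest Hox gene in all 10 libraries, Hoxd8 was above 1 TPM only in Oli-neu, and Hoxb4 was listed at 0 in every library. Each is written 5′ to 3′ on the gene's own strand, and capitals mark CpG dinucleotides. Hoxa5 lies on the minus strand at chr6:52204588-52204837, Hoxd8 on the plus strand at chr2:74704365-74704614 and Hoxb4 on the plus strand at chr11:96318017-96318266.
Hoxa5: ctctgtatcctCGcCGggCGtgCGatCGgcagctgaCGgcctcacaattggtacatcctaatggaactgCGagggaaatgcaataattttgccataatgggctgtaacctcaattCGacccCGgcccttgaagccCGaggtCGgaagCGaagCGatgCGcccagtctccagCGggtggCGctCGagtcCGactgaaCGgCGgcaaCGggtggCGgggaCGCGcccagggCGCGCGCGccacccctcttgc
Hoxd8: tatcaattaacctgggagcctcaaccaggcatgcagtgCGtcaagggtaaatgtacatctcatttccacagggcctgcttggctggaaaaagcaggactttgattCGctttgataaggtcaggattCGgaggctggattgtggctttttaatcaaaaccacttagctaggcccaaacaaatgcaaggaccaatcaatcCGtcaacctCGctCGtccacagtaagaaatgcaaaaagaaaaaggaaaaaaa
Hoxb4: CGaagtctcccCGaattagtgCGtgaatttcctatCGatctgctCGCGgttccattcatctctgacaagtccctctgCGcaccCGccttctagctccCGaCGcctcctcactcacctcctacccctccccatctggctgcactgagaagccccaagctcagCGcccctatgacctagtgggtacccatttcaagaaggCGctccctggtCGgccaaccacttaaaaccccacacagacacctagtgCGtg

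The Hoxa5 window held 28 CpG, the Hoxd8 window 6 and the Hoxb4 window 14. Over all 32851 promoter windows of the annotation the median was 6 CpG, and over the 24 Hox windows it was 12.5, with a range of 2 to 35. The windows of 2 genes at 1 TPM or more in both lines, Hoxa3 and Hoxa5, held 18 and 28 CpG. The 5 windows of genes at that level only in Oli-neu held 3 to 20, and the 17 windows of genes below it in both lines held 2 to 35, so the ranges of the classes overlapped. A CCAAT box, searched as CCAAT on both strands, was in 14 of 24 Hox windows (58.3%) and in 33.8% of all windows. The core motif of retinoid receptor sites, AGGTCA on either strand, was in 6 Hox windows (25%), those of Hoxb4, Hoxc4, Hoxd3, Hoxd4, Hoxd8 and Hoxd10, and in 14.02% of all windows. A Hox-Pbx site, searched as TGATNNAT on both strands, was in the windows of Hoxa2, Hoxb1, Hoxb8 and Hoxd11 (16.7%) and in 7.68% of all windows. A TATA box, searched as TATAAA on both strands, was in those of Hoxa10, Hoxb8, Hoxd4 and Hoxd13 (16.7%) and in 12.4% of all windows.

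Both lines expressed Hox genes when grown alone, and in both most of that expression came from the 3′ and central part of HoxA. The summed level of the 38 genes was 6.86 and 7.77 TPM in MB1 alone and 33.4 and 34.1 TPM in Oli-neu alone. HoxA held 98.7% of the sum in MB1 alone and 82.8% in Oli-neu alone. HoxD held 0.765% in MB1 alone and 12.6% in Oli-neu alone, HoxC held 0.361% in MB1 alone and 4.49% in Oli-neu alone, and HoxB held 0.214% in MB1 alone and 0.0553% in Oli-neu alone. When TPM were rescaled over protein-coding genes, the summed level was 9.81 TPM in MB1 alone and 53.1 TPM in Oli-neu alone.

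A mean of at least 1 TPM was reached by 3 of the 38 Hox genes in MB1 alone and by 7 in Oli-neu alone. These are 7.89% and 18.4%, beside 52.6% of all protein-coding genes in MB1 alone and 49.7% in Oli-neu alone. Hoxa3, Hoxa4 and Hoxa5 reached it in both lines, Hoxa7, Hoxa10, Hoxd4 and Hoxd8 reached it only in Oli-neu, and no gene reached it in MB1 without reaching it in Oli-neu. The remaining 31 genes stayed below it in both. Just inside the threshold in Oli-neu alone stood Hoxd4 at 1.01 TPM, and just outside it stood Hoxa13 at 0.956, Hoxa2 at 0.938, Hoxc4 at 0.881 and Hoxa9 at 0.824 TPM. At a lower minimum of 0.1 TPM there were 5 Hox genes in MB1 alone and 15 in Oli-neu alone.

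Hoxa5, which patterns the neck and upper trunk and the lung, was the highest member in both lines. It was at 3.82 and 4.03 TPM in MB1 alone and at 11.5 and 8.78 TPM in Oli-neu alone, a log2 difference of the means, MB1 over Oli-neu, of -1.37. Hoxa4, a gene of cervical patterning, was at 1.29 and 1.64 TPM in MB1 alone and at 7.01 and 6.51 TPM in Oli-neu alone, a difference of -2.21. Hoxa3, needed for thymus and parathyroid formation, was at 0.997 and 1.38 TPM in MB1 alone and at 3.68 and 5.08 TPM in Oli-neu alone, a difference of -1.88. For these 3 genes both MB1 libraries lay below both Oli-neu libraries. The same held for 21.4% of the 12911 genes with at least 1 TPM in 2 or more of these 4 libraries, and the MB1 libraries lay above for 55%.

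**Figure D1:**
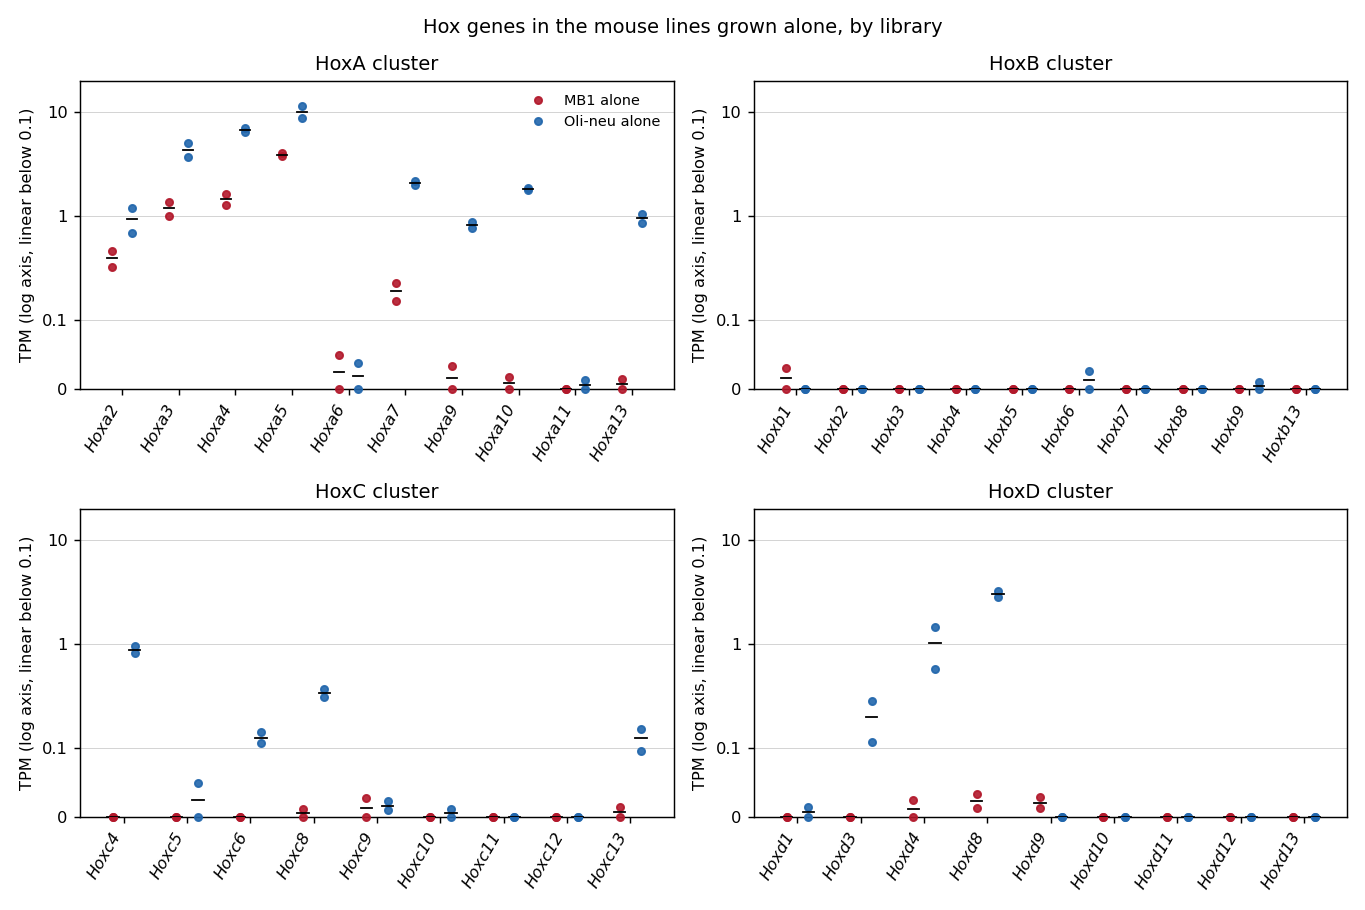
Hox genes in MB1 alone (left of each gene) and Oli-neu alone (right), 1 point for each library in TPM, with a bar at the mean of 2 and an axis that is logarithmic above 0.1 TPM and linear below. Hoxa2 to Hoxa5 and all genes from Hoxa7 to Hoxa13 except Hoxa11 are higher in Oli-neu, and HoxB lies at the floor in both.

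The order of levels in Oli-neu alone ran Hoxa5, Hoxa4, Hoxa3, Hoxd8, Hoxa7 and Hoxa10, each above the next in both libraries. Below Hoxa10, the neighbours Hoxd4, Hoxa13, Hoxa2, Hoxc4 and Hoxa9 overlapped between libraries and have no fixed order. Hoxc8, a gene of brachial motor neurons, followed at 0.337 ± 0.0393 TPM (SD, n = 2), and Hoxd3, Hoxc6 and Hoxc13 between 0.123 and 0.198 TPM overlapped each other. In MB1 alone Hoxa5 stood above the rest, and Hoxa4 and Hoxa3 overlapped. Hoxa2, which sets the identity of the second rhombomere and the second pharyngeal arch, followed at 0.395 ± 0.101 TPM, and Hoxa7, a thoracic gene, at 0.190 ± 0.0522 TPM (SD, n = 2 each).

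Several genes towards the 5′ end of HoxA and in HoxC and HoxD were low or at 0 in MB1 and expressed in Oli-neu. Hoxa7 was at 0.227 and 0.153 TPM in MB1 alone and at 2.01 and 2.17 TPM in Oli-neu alone. Hoxa10, which acts at lumbar level and in the uterus, was at 0 and 0.0183 TPM in MB1 alone and at 1.88 and 1.78 TPM in Oli-neu alone. Hoxa9 was at 0.0339 and 0 TPM in MB1 alone and at 0.776 and 0.872 TPM in Oli-neu alone. Hoxa13, the last gene of the cluster and a gene of distal limb and genital tract, was at 0.0153 and 0 TPM in MB1 alone and at 0.865 and 1.05 TPM in Oli-neu alone. For each of these 4 genes, described because they differ, both MB1 libraries lay below both Oli-neu libraries. The share was 21.4% of the 12911 genes with at least 1 TPM in 2 or more of these libraries. Hoxa9 and Hoxa13 did not meet that level and are not among those genes. Outside HoxA, Hoxd8 was at 0.0129 and 0.0326 TPM in MB1 alone and at 2.83 and 3.27 TPM in Oli-neu alone. Hoxd4, which is expressed up to the caudal hindbrain, was at 0 and 0.0245 TPM in MB1 alone and at 0.572 and 1.45 TPM in Oli-neu alone. Hoxc4 was listed at 0 in both MB1 libraries and was at 0.816 and 0.946 TPM in Oli-neu alone.

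By paralogue number, groups 1 to 3 held 19.7% and 23.7% of the summed TPM of the 38 genes in the libraries of MB1 alone and 13.5% and 19.2% in those of Oli-neu alone. Groups 4 to 8 held 78.6% and 75.9% in MB1 alone and 75.6% and 69.4% in Oli-neu alone. Groups 9 to 13, the posterior members, held 1.72% and 0.412% in MB1 alone and 10.95% and 11.4% in Oli-neu alone. The share of the posterior members was thus lower in both MB1 libraries, and that of groups 1 to 3 was higher. Group 6 was low in both lines, with summed levels of 0.0250 TPM in MB1 alone and 0.158 TPM in Oli-neu alone. Of its neighbours Hoxa5 and Hoxa7, both were above 1 TPM in Oli-neu alone and only Hoxa5 in MB1 alone. Hoxa6 itself reached at most 0.05004 TPM in any mouse library. Group 12 was listed at 0 in both lines grown alone, and group 11 was at 0 in MB1 alone and at 0.00640 TPM in Oli-neu alone.

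Of the 38 genes, 21 were listed at 0 in all 4 MB1 libraries and 8 in all 6 Oli-neu libraries. The same 8 genes were at 0 in every mouse library: Hoxb2, Hoxb3, Hoxb4, Hoxb5, Hoxb7, Hoxb8, Hoxb13 and Hoxd12. The other 3 HoxB genes, Hoxb1, Hoxb6 and Hoxb9, reached at most 0.0314 TPM. The HoxB cluster spans 173.941 kb at chr11:96194316-96368256, and the low values did not stop at its ends. From Calcoco2, beyond Hoxb13, to Skap1, beyond Hoxb1, all 13 protein-coding genes across 659.805 kb, of which 3 are not Hox genes, stayed at or below 0.0554 TPM. Of all protein-coding genes, 35.3% in MB1 alone and 38.6% in Oli-neu alone had a mean below 0.1 TPM. Past Calcoco2, Atp5g1, a subunit of ATP synthase, averaged 105 ± 34.6 TPM in MB1 alone and 144 ± 7.60 TPM in Oli-neu alone (SD, n = 2 each). Atp5g1 was named after its values were seen.

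HoxA spans 98.464 kb from Hoxa2 to Hoxa13, at chr6:52162417-52260880. Skap2, its neighbour on the 3′ side and a paralogue of Skap1, averaged 177 ± 26.3 TPM in MB1 alone and 130 ± 17.2 TPM in Oli-neu alone. Evx1, a homeobox gene beyond Hoxa13, was listed at 0 in all 10 libraries. Hibadh, the next protein-coding gene, averaged 40.5 ± 3.57 TPM in MB1 alone and 25.9 ± 0.747 TPM in Oli-neu alone. All 10 HoxA genes lay below Skap2 and Hibadh in both lines. HoxC spans 115.75 kb at chr15:102921103-103036852 and HoxD 96.833 kb at chr2:74668310-74765142, and most of the listed genes around them were expressed in both lines. Hnrnpa1, an RNA-binding protein gene beyond Hoxc4, averaged 470 ± 4.26 TPM in MB1 alone and 435 ± 11.2 TPM in Oli-neu alone (SD, n = 2 each). Smug1, the nearest of these to Hoxc4, averaged 3.50 ± 0.189 TPM in MB1 alone and 2.24 ± 0.360 TPM in Oli-neu alone. Next to HoxD, Mtx2, beyond Hoxd1, averaged 23.8 ± 1.52 TPM in MB1 alone and 30.6 ± 1.02 TPM in Oli-neu alone. The homeobox gene Evx2, beyond Hoxd13, was like Evx1 at or near 0, at 0 TPM in MB1 alone and 0.00889 TPM in Oli-neu alone.

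**Figure D2:**
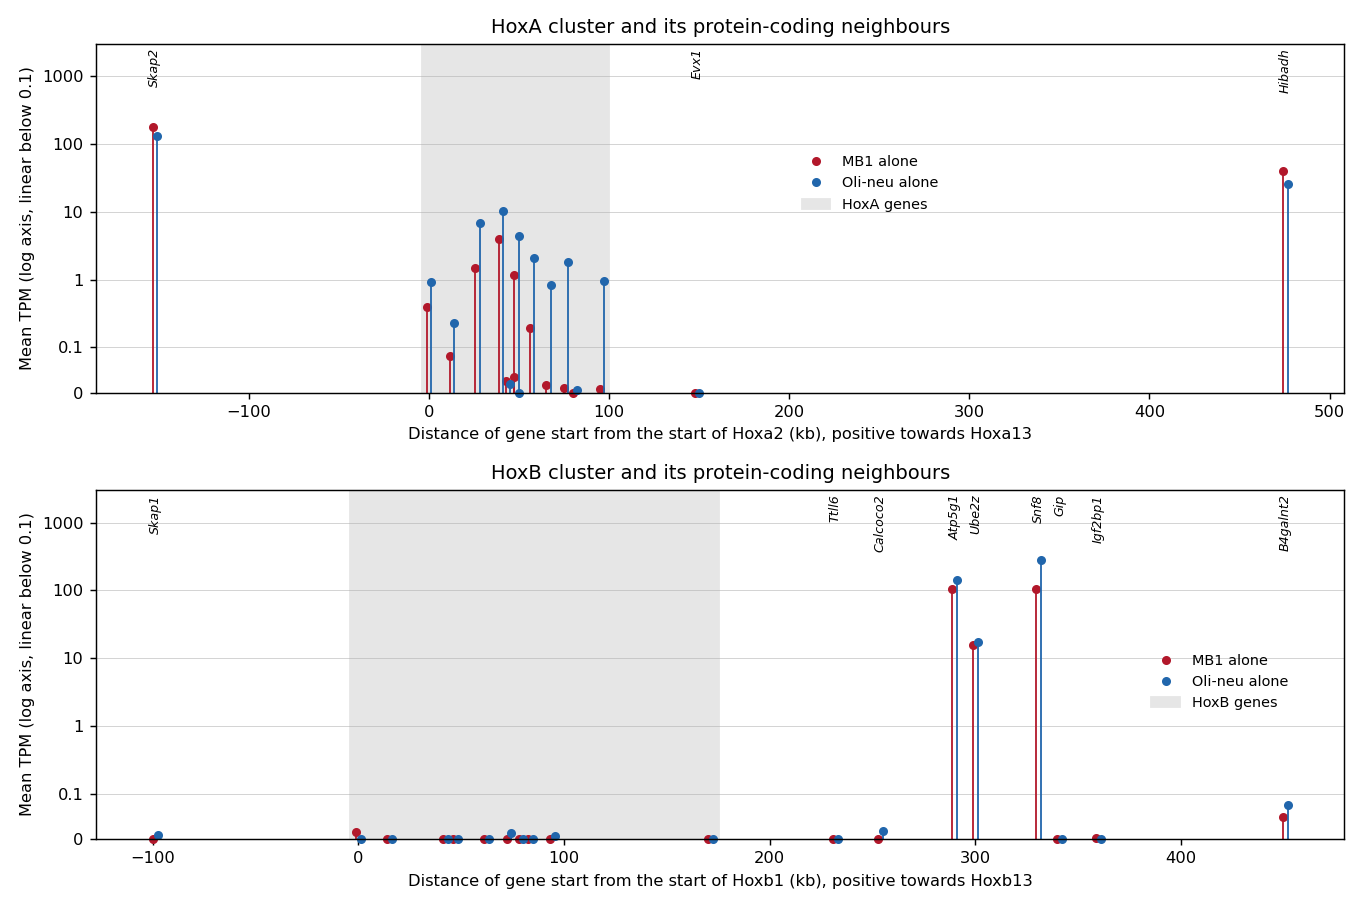
Mean TPM of 2 libraries of MB1 alone (left point of each pair) and Oli-neu alone (right) for protein-coding genes around HoxA and HoxB, against the distance of the gene start from that of Hoxa2 or Hoxb1 in kb. The vertical axis is logarithmic above 0.1 TPM and linear below, shading marks the cluster with 2 further gene models inside HoxA left unnamed, and in HoxB no gene rises off the floor between Skap1 and Calcoco2.

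The spans of some members overlap in the annotation, which may make their levels uncertain. Whether their transcripts share sequence was not examined. The span of Hoxa3 contains Hoxa4, Hoxa5 and Hoxa6 on the same strand, that of Hoxc5 overlaps Hoxc6, Hoxc8, Hoxc9 and Hoxc10, and that of Hoxd3 overlaps Hoxd4. A gene model that joins Hoxd3 and Hoxd4, Gm28230, was given between 0.270 and 0.382 TPM in the 6 Oli-neu libraries and 0 in MB1. How the quantification split reads between these models was not tested. Hoxd4 was the expressed member whose replicates differed most, at 0.225 and 1.62 TPM in Oli-neu with MB1, 1.02 and 0.871 TPM with D341 and 0.572 and 1.45 TPM alone. Hoxd3 was at 0.764 TPM in 1 library of Oli-neu with D341 and at 0.113 to 0.291 TPM in the other 5 Oli-neu libraries.

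Factors that mark the brain in front of the Hox territory differed between the lines. Otx2, a factor of forebrain and midbrain and of some cerebellar precursors, was at 16.0 and 14.5 TPM in MB1 alone and listed at 0 in both libraries of Oli-neu alone. En2, which acts at the midbrain-hindbrain border and in the cerebellum, was at 9.68 and 10.8 TPM in MB1 alone and at 1.32 and 1.46 TPM in Oli-neu alone. Gbx2, the partner of Otx2 on the hindbrain side of the border, was at 3.25 and 2.92 TPM in MB1 alone and at 0.157 and 0.353 TPM in Oli-neu alone. For each of these 3 genes both MB1 libraries lay above both Oli-neu libraries, beside 55% of all genes. Of the other 8 genes of the forebrain and midbrain list, 2 were above 1 TPM in either line. Lhx2 was at 30.1 and 20.8 TPM in MB1 alone and 10.8 and 8.80 TPM in Oli-neu alone, and Emx2, a cortical factor, was at 10.98 and 5.69 TPM in MB1 alone and 3.69 and 4.19 TPM in Oli-neu alone. Otx1 stayed below 1 TPM, Six3, Emx1 and Dmbx1 below 0.1 TPM, and Six6 and Hesx1 at 0 in all 10 libraries. Otx1 was higher in Oli-neu alone, at 0.857 and 0.956 TPM, than in MB1 alone, at 0.557 and 0.432 TPM. Pax2 and Pax5, early genes of the border, did not exceed 0.0425 TPM in any mouse library. The border signal Fgf8 was at 0.318 and 0.512 TPM in MB1 alone and at 0 in both libraries of Oli-neu alone. Fgf17, of the same list, went the other way, at 0.0762 and 0.0950 TPM in MB1 alone and 0.293 and 0.359 TPM in Oli-neu alone. The 3 Hox genes at 1 TPM or more in MB1 were therefore measured in the same libraries as Otx2, En2 and Gbx2. Whether single cells hold both cannot be told from bulk RNA.

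Cofactors of the TALE class, homeodomain proteins that bind DNA together with Hox proteins, were expressed in both lines. The Pbx genes were at similar levels, with Pbx2 at 15.1 and 18.9 TPM in MB1 alone and 20.7 and 27.2 TPM in Oli-neu alone. Pbx4 averaged 17.3 ± 1.32 TPM in MB1 alone and 19.3 ± 1.81 TPM in Oli-neu alone, and Pbx3 averaged 14.3 ± 3.77 TPM in MB1 alone and 10.1 ± 0.343 TPM in Oli-neu alone (SD, n = 2 each). The Meis genes, named after their values were seen, were divided between the lines. Meis2 was at 0.0135 and 0.0106 TPM in MB1 alone and at 18.7 and 12.4 TPM in Oli-neu alone. Meis1 was at 16.2 and 12.8 TPM in MB1 alone and 3.09 and 3.74 TPM in Oli-neu alone, and Meis3 at 10.9 and 12.2 TPM in MB1 alone and 2.58 and 4.23 TPM in Oli-neu alone. The MB1 libraries lay below those of Oli-neu for Meis2 (21.4% of all genes) and above them for Meis1 and Meis3 (55% of all genes).

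**Figure D3:**
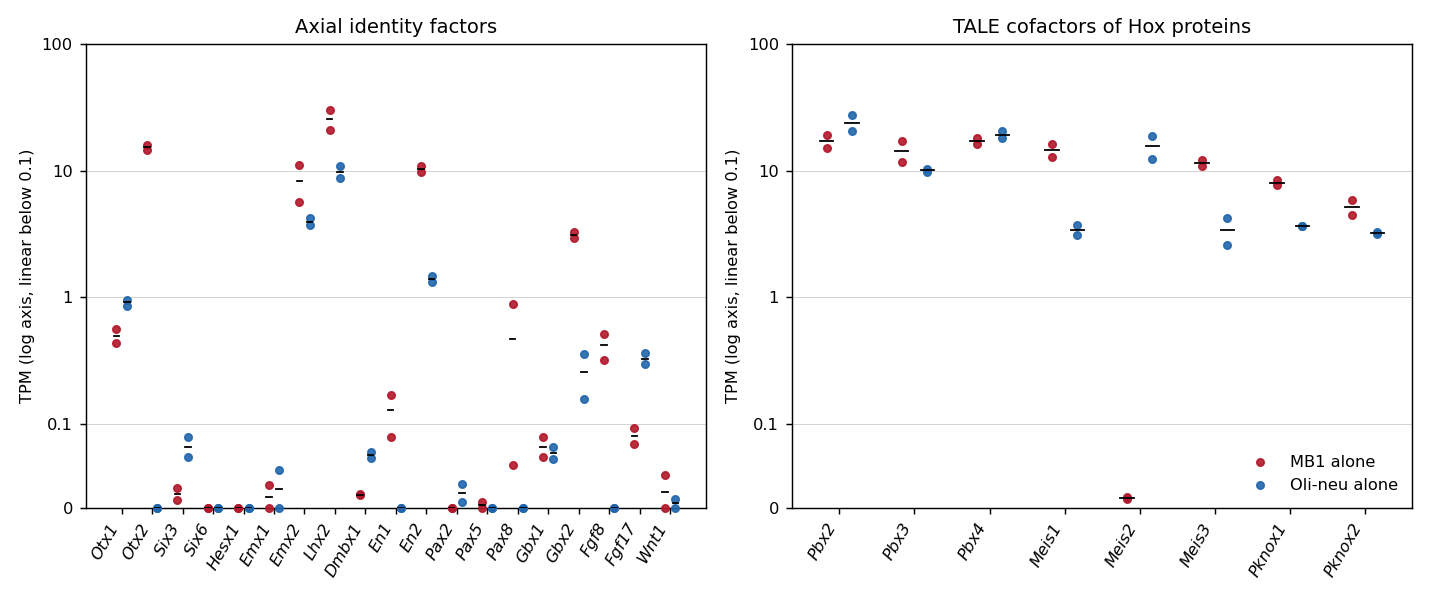
TPM of factors of forebrain, midbrain and rhombomere 1 (left panel) and of TALE cofactors (right panel) in MB1 alone (left of each gene) and Oli-neu alone (right), 1 point for each library and a bar at the mean, on an axis that is logarithmic above 0.1 TPM. Otx2, En2 and Gbx2 are higher in MB1 and Meis2 in Oli-neu, while Pbx2, Pbx3 and Pbx4 lie between 9.82 and 27.2 TPM in both.

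Genes that set Hox expression were measured as well. The Cdx factors, activators of central and posterior Hox genes, were at or near 0, with at most 0.0278 TPM for Cdx1, Cdx2 and Cdx4 in any mouse library. The hindbrain regulator Egr2 was present in both lines, at 6.94 and 2.91 TPM in MB1 alone and 2.92 and 1.32 TPM in Oli-neu alone. Gmnn, geminin, averaged 41.4 ± 2.28 TPM in MB1 alone and 30.0 ± 3.03 TPM in Oli-neu alone, and Tshz1, a zinc finger factor of trunk identity in the fly, averaged 6.52 ± 1.10 TPM in MB1 alone and 3.89 ± 0.00494 TPM in Oli-neu alone (SD, n = 2 each). Retinoic acid switches on 3′ Hox genes through its receptors, most of which were present in both lines at unequal levels. Rarg was at 2.86 and 3.17 TPM in MB1 alone and 23.2 and 23.7 TPM in Oli-neu alone, and Rara at 7.23 and 9.43 TPM in MB1 alone and 16.4 and 16.2 TPM in Oli-neu alone. Rarb, named after its values were seen, was at 8.19 and 6.83 TPM in MB1 alone and 0.273 and 0.222 TPM in Oli-neu alone. Of their partner receptors, Rxrb was at 13.9 and 17.4 TPM in MB1 alone and 19.5 and 24.9 TPM in Oli-neu alone, and Rxra was between 2.29 and 2.67 TPM in both lines grown alone. Polycomb complexes keep Hox genes silent outside their domain, and both lines expressed their core subunits. The methyltransferase Ezh2 was at 104 and 84.8 TPM in MB1 alone and 73.1 and 73.2 TPM in Oli-neu alone, and its partner Eed was at 79.0 and 65.1 TPM in MB1 alone and 51.4 and 52.2 TPM in Oli-neu alone. Of 2 alternative subunits of Polycomb repressive complex 1, Bmi1 was at 58.7 and 56.6 TPM in MB1 alone and 23.1 and 22.5 TPM in Oli-neu alone, and Pcgf2 at 9.15 and 9.28 TPM in MB1 alone and 37.8 and 40.2 TPM in Oli-neu alone. The MB1 libraries lay above those of Oli-neu for Bmi1 (55% of all genes) and below them for Pcgf2 (21.4% of all genes). Men1, menin, a subunit of the opposing Trithorax-type complexes, was at 71.7 and 81.0 TPM in MB1 alone and 53.6 and 41.3 TPM in Oli-neu alone.

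When Oli-neu was grown with MB1 or D341, none of its Hox genes passed the test against Oli-neu alone. Hoxa9 was higher in all 4 co-culture libraries, but it entered the test only through them, being below 1 TPM in Oli-neu alone. For the other members tested the fold changes of the means were smaller. Differences were tested with limma on log2(TPM + 1) over all genes that reached 1 TPM in 2 or more libraries of the line, with p values adjusted over those genes and a threshold of 0.05. Of the 38 members 9 entered the test in Oli-neu, and 29 stayed below the filter, the highest being Hoxa2 at 1.19 TPM in 1 library. Hoxc4, also below it, was at 0.613 and 0.733 TPM with MB1 and at 0.677 and 0.528 TPM with D341. In Oli-neu alone Hoxc4 was at 0.816 and 0.946 TPM, so that all 4 co-culture libraries were lower, without a test. Among the genes tested, both co-culture libraries lay lower for 24% with MB1 and for 44% with D341. The libraries of Oli-neu alone are shared by these comparisons. With MB1 against alone, 0 of the 9 and 0 of 12280 genes passed the adjusted threshold (0%). At an unadjusted p under 0.05 there were 0 of the 9 and 747 of all genes (6.08%). Both libraries with MB1 lay above both libraries alone for 3 members, Hoxa5, Hoxa9 and Hoxa13, beside 10.1% of all genes tested. Of these, Hoxa9 reached 1 TPM in no library of Oli-neu alone and Hoxa13 in 1. Both libraries with MB1 lay below for 1 member, Hoxa10, beside 24% of all genes. The median log2 fold change was 0.10 over the 9 members and -0.06 over all genes tested.

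Hoxa9 had the highest of these fold changes in both co-cultures. It reached 1 TPM only in co-culture libraries and passed the filter through them, so a higher level there was partly set by the filter. It was at 1.95 and 1.13 TPM with MB1, at 1.71 and 1.24 TPM with D341, and at 0.776 and 0.872 TPM in Oli-neu alone. All 4 co-culture libraries lay above both monoculture libraries, which the 2 comparisons share. The log2 fold change was 0.46 (SE 0.22, adjusted p = 0.836, limma) with MB1 and 0.44 (SE 0.22, adjusted p = 0.416, limma) with D341. The 95% intervals ran from -0.10 to 1.01 with MB1 and from -0.12 to 0.99 with D341. Between libraries of the same number the log2 fold changes were 0.73 and 0.18 with MB1 and 0.61 and 0.26 with D341. Without replicate 1 of Oli-neu with MB1 the fold change was 0.22 with MB1.

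The other members had smaller fold changes. Hoxa5 was at 12.0 and 11.6 TPM with MB1, at 12.8 and 10.6 TPM with D341, and at 11.5 and 8.78 TPM in Oli-neu alone, with log2 fold changes of 0.21 (SE 0.16) and 0.20 (SE 0.16). Hoxa4 was at 6.96 and 7.56 TPM with MB1, at 8.24 and 7.19 TPM with D341, and at 7.01 and 6.51 TPM alone, and only with D341 did its libraries clear those of Oli-neu alone. Hoxa3 was at 4.48 and 5.59 TPM with MB1, at 4.197 and 4.69 TPM with D341, and at 3.68 and 5.08 TPM alone. The groups overlapped for Hoxa3 in both comparisons.

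Among the genes that stayed below 1 TPM in MB1, Hoxd8 was at 2.40 and 2.98 TPM with MB1, at 2.55 and 2.80 TPM with D341, and at 2.83 and 3.27 TPM in Oli-neu alone. Hoxa7 was at 2.01 and 2.62 TPM with MB1, at 2.24 and 1.65 TPM with D341, and at 2.01 and 2.17 TPM alone. Hoxa10 was the steadiest, at 1.66 and 1.65 TPM with MB1, 1.77 and 1.80 TPM with D341, and 1.88 and 1.78 TPM alone. Hoxa13 was at 1.09 and 1.30 TPM with MB1, at 0.925 and 0.909 TPM with D341, and at 0.865 and 1.05 TPM alone. For Hoxd8 and Hoxa13 the log2 fold changes lay between -0.14 and 0.17 in both comparisons with Oli-neu alone. The summed level of the 38 Hox genes was 36.6 ± 2.64 TPM with MB1, 36.2 ± 2.85 TPM with D341 and 33.7 ± 0.495 TPM alone (SD, n = 2 each). HoxB summed to at most 0.0382 TPM in any Oli-neu library.

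With D341 against alone, 0 of the 9 members and 0 of 12280 genes passed (0%), and at an unadjusted p under 0.05 there were 0 members and 1684 genes (13.7%). Both libraries with D341 lay above those alone for 2 members, Hoxa4 and Hoxa9, beside 7.12% of all genes. They lay below for 1, Hoxd8, beside 44% of all genes. Hoxa9, below 1 TPM in Oli-neu alone, passed the filter only through co-culture libraries, so its place above was partly set by the filter. The median log2 fold change was -0.01 over the members and -0.16 over all genes. Scaling the columns by median ratios put the median of all genes at 0.00. With it 10 members passed the filter, of which 9 had a fold change above 0 and 1 below, in place of 4 above and 5 below. With D341 against with MB1, 0 members and 0 genes passed (0%). At an unadjusted p under 0.05 there were 0 members and 630 genes (5.13%). Both D341 libraries were above for 1 member, Hoxa10 (6.6% of all genes), and below for 1, Hoxa13 (28.8% of all genes). Hoxa13 reached 1 TPM in both libraries with MB1 and in neither with D341, so its lower level with D341 was partly set by the filter. In this comparison the split was 3 above and 6 below, or 7 and 3 with median-ratio scaling. Across the 3 comparisons the 95% intervals of the 9 members ran from -1.218 to 1.203, both ends being those of Hoxd4.

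**Figure D4:**
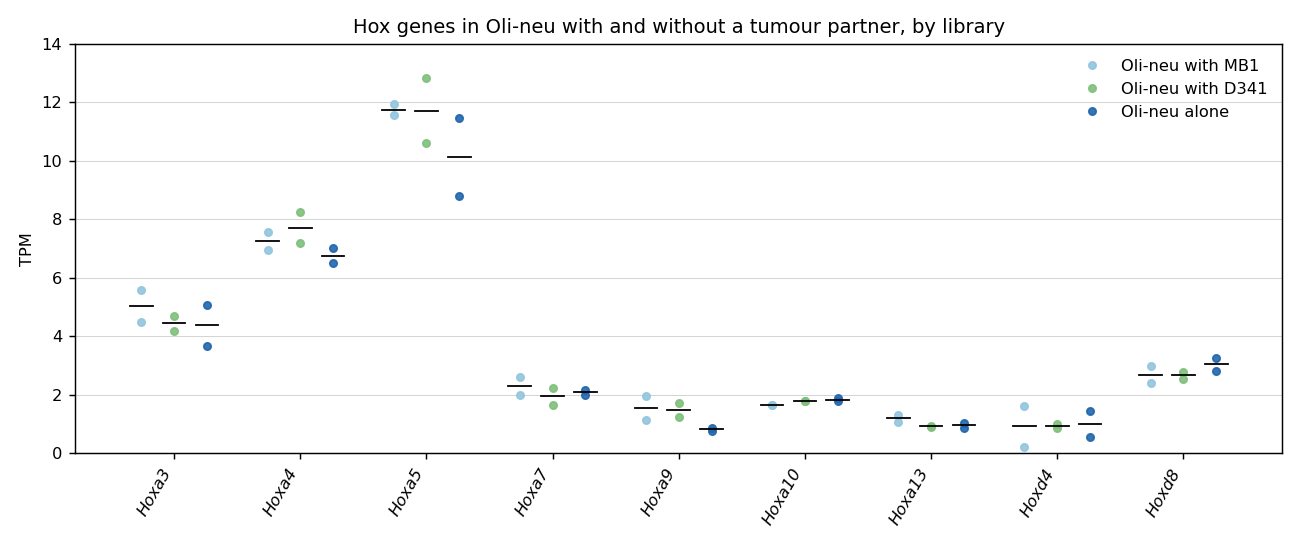
TPM of the 9 Hox genes tested in Oli-neu, with MB1 (left), with D341 (middle) and alone (right), 1 point for each of 2 libraries and a bar at their mean, on a linear axis. Hoxa9 is at 1.13 to 1.95 TPM in the co-cultures and at most 0.872 TPM alone, and the 2 libraries of Hoxd4 lie apart.

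In MB1 grown with Oli-neu, Hoxa5 was lower than in MB1 alone but did not pass the adjusted test. It was at 2.63 and 2.28 TPM with Oli-neu and at 3.82 and 4.03 TPM alone, so the groups did not overlap. The log2 fold change was -0.51 (SE 0.16, unadjusted p = 0.0261, adjusted p = 0.292, limma), with a 95% interval from -0.93 to -0.09. Without MB1 alone replicate 2, the library that stood apart, it was -0.48 (adjusted p = 0.336, limma). Of the 38 members 3 entered the test in MB1, and 35 stayed below the filter, the highest being Hoxa2 at 0.466 TPM. Of the 3, 0 passed, beside 0 of 12407 genes (0%), and 1 had an unadjusted p under 0.05, beside 1944 genes (15.7%). For 1 member both libraries with Oli-neu lay below those alone, beside 41.5% of all genes, and for 0 members they lay above, beside 10.9%. The median log2 fold change was -0.19 over the 3 members and -0.17 over all genes. With median-ratio scaling the median of all genes was 0.00, and the split of members above and below 0 was 1 and 2 in place of 0 and 3.

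The other 2 tested members overlapped between the groups. Hoxa3 was at 1.01 and 0.814 TPM with Oli-neu and at 0.997 and 1.38 TPM in MB1 alone. Hoxa4 was at 1.54 and 1.12 TPM with Oli-neu and at 1.29 and 1.64 TPM alone. Below the filter, Hoxa2 was at 0.309 and 0.248 TPM with Oli-neu and at 0.323 and 0.466 TPM alone, and Hoxa7 at 0.0835 and 0.0527 TPM with Oli-neu and 0.227 and 0.153 TPM alone. Both were lower in each library with Oli-neu, without a test. The same held for 41.5% of the genes tested, which do not include Hoxa2 and Hoxa7. The summed Hox level was 5.69 and 4.63 TPM with Oli-neu and 6.86 and 7.77 TPM alone. Marker lists differed between the same groups. The 7 oligodendrocyte precursor markers summed to 636 to 762 TPM with Oli-neu and 933 to 1095 TPM alone, with 4 of 5 tested lower and 1 higher. The 6 astrocyte markers summed to 507 to 510 TPM with Oli-neu and 397 to 434 TPM alone, with 5 of 5 tested higher. Their part in the Hox levels was not tested.

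**Figure D5:**
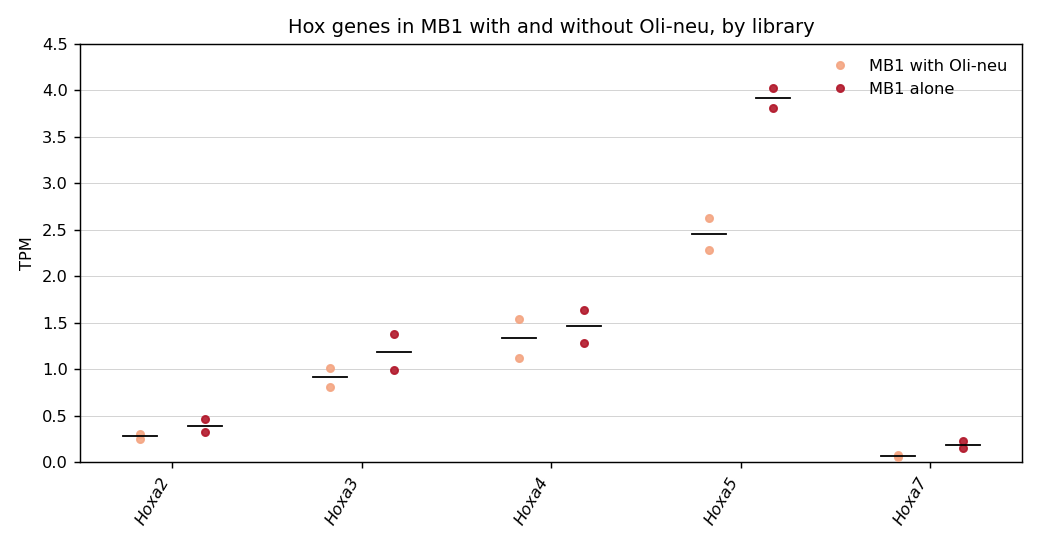
TPM of the 5 HoxA genes above 0.1 TPM in MB1 alone, shown in MB1 with Oli-neu (left of each gene) and alone (right). There is 1 point for each of 2 libraries and a bar at their mean, on a linear axis. Hoxa5 lies at 2.28 and 2.63 TPM with Oli-neu and at 3.82 and 4.03 TPM alone, and Hoxa3 and Hoxa4 overlap.

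Genes at 1 TPM or more in only 1 of the lines were also read in the libraries of its partner. Hoxa7, Hoxa10, Hoxd4 and Hoxd8 together were at 0.192 and 0.0627 TPM in MB1 with Oli-neu and at 0.240 and 0.229 TPM in MB1 alone, while the Oli-neu libraries held 6.30 to 8.87 TPM. Both co-culture values were below those of MB1 alone. Sox10, far more abundant in Oli-neu, was at 0.586 and 0.484 TPM in MB1 with Oli-neu and at 0.882 and 0.466 TPM in MB1 alone. Meis2 was at 0.214 and 0.945 TPM in MB1 with Oli-neu and at 0.0135 and 0.0106 TPM in MB1 alone. In the other direction Otx2 was at 0.0176 and 0 TPM in Oli-neu with MB1, at 0.672 and 0.0525 TPM with D341 and at 0 in both libraries alone. Whether RNA of a partner line contributed to any of these values was not tested.

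No member of the lists of cofactors, regulators or flanking genes passed the test in any of the 4 comparisons (0 of all genes, 0%). In Oli-neu with MB1 against alone, the median log2 fold change was 0.05 over 8 TALE cofactors tested, -0.17 over 11 genes of Polycomb repressive complex 2, -0.06 over 18 of Polycomb repressive complex 1, -0.08 over 12 Trithorax genes and H3K27 demethylases, and -0.04 over 12 genes flanking the clusters, beside -0.06 over all genes. In Oli-neu with D341 against alone these medians were 0.0048, -0.30, -0.15, -0.21 and -0.24, beside -0.16 over all genes, and 0 of the 12 flanking genes had a fold change above 0. In MB1 with Oli-neu against alone they were -0.13, -0.32, -0.07, -0.37 and -0.25, with 7 TALE cofactors tested, beside -0.17 over all genes. Ezh2 was at 71.2 and 62.4 TPM in MB1 with Oli-neu and at 104 and 84.8 TPM in MB1 alone (log2 fold change -0.49, SE 0.18, adjusted p = 0.310, limma). In the retinoic acid list, Dhrs3, which reduces retinal to retinol and was named after its values were seen, was at 11.04 and 9.98 TPM with MB1, at 9.31 and 8.17 TPM with D341 and at 1.85 and 1.84 TPM in Oli-neu alone. All 4 co-culture libraries lay above both libraries of Oli-neu alone, which the comparisons share. The log2 fold change was 2.01 with MB1 (SE 0.11, adjusted p = 0.0631, limma) and 1.77 with D341 (SE 0.11, adjusted p = 0.198, limma), so that neither passed. With MB1 it passed in 3 of 14 alternative settings, with a pseudocount of 0.1 TPM (adjusted p = 0.0309, limma), with median-ratio scaling (adjusted p = 0.0425, limma) and over protein-coding genes only (adjusted p = 0.0104, limma), and its adjusted p ranged up to 0.731 over the 14. With D341 it passed in 1 of 14, over protein-coding genes only (adjusted p = 0.0407, limma), with a range up to 0.589. Aldh1a1, which makes retinoic acid, was at 20.8 and 21.7 TPM in MB1 with Oli-neu and at 8.47 and 8.23 TPM in MB1 alone (log2 fold change 1.25, SE 0.14, adjusted p = 0.216, limma). Of the 18 genes of that list 10 were tested in Oli-neu and 9 in MB1, with 0 called in either direction.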

How the data were processed

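The authors' deposited values are TPM per gene, in 1 table for each line. Salmon 0.14.1 and DESeq2 1.22.2, with FastQC 0.11.8 and MultiQC 1.7, and the build GRCm38 are listed in the submitters' processing notes. Per the labels, libraries were made with a directional kit from poly(A) RNA and sequenced over 75 cycles. Library-type settings are not given in the sources used here. Each column sums to 1000000, so the depth is unknown and no counting interval is given.

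Symbols and positions came from GENCODE M21. Of 19 noncoding genes of the clusters looked up, 0 were measured, and they are not analysed here. Tests were two-sided, by limma 3.58.1 (R 4.3.3) with a mean-variance trend, on log2(TPM + 1). Genes with at least 1 TPM in 2 libraries were tested, 12280 in Oli-neu (6 libraries, 1 fit) and 12407 in MB1 (4 libraries). Adjustment was by Benjamini-Hochberg over the genes tested. Errors are the SD of 2 libraries or the moderated SE. The procedure was tested on simulated data. Hox genes with a mean of at least 1 TPM in any mouse group are named with each library's value. Listed regulators are named by level. A Hox gene and 3 listed regulators are not reported here. The members and lists were chosen with earlier results of these data known. The replicate numbers were not treated as pairs. Alternatives are given in the closing section.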

Additional observations from a re-analysis of the deposited data

Results flagged for a closer look

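The log2 fold changes of Hoxa5 had opposite signs in the 2 partners of the same co-culture. Its log2 fold change was -0.512334 in MB1 with Oli-neu against MB1 alone, beside a median of -0.17 over all genes tested. Both libraries lay below those of MB1 alone, beside 41.5% of all genes. The log2 fold change of Hoxa5 was 0.206976 in Oli-neu with MB1 against Oli-neu alone, beside a median of -0.06 over all genes. Both libraries lay above those of Oli-neu alone, beside 10.1% of all genes. Neither passed the adjusted test, and the difference between the lines was not tested, since the tables were fitted apart. Hoxa5 was 1 of 3 members tested in both tables and the only one of them whose libraries did not overlap in either line. The fold changes of the other 2, Hoxa3 and Hoxa4, also had opposite signs, with libraries that overlapped. That of Hoxa4 in MB1 changed sign with median-ratio scaling.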

How the results depend on the processing

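No Hox gene passed the adjusted threshold in any of 396 refits of the 30 fold changes, whose smallest adjusted p was 0.252, and 362 kept their direction. The count of Hox members called stayed at 0 in all 4 comparisons under every setting run. Depth is unknown, so genes listed at 0 have no upper limit here. With 2 libraries a group, differences of the size of the intervals given cannot be told from none.

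The count of all genes called, 0 as reported, was for Oli-neu with MB1 against alone 1 without a filter, 3 with a pseudocount of 0.1 TPM, 2 with median-ratio scaling, 2 with protein-coding genes only and 1 without a trend. For Oli-neu with D341 against alone it was 3 without a filter, 1 with protein-coding genes only and 0 to 2 with a library left out. For D341 against MB1 as partner it was 6 without a filter, 1 with protein-coding genes only, 1 without a trend and 0 to 3 with a library left out. For MB1 with Oli-neu against alone it was 5 with protein-coding genes only and 1 to 112 with a library left out, 112 being without MB1 alone replicate 1. Where a library was left out, the lone library of its group was taken to have the spread of the others. With the replicate number as a replicate block 0 genes were called in each comparison, and it changed no call. Same-numbered libraries deviated together in Oli-neu (r across genes 0.593 to 0.618) but not in MB1 (-0.115), where a crossed block, added after seeing the data, gave 0 genes and 0 Hox members. The labels name no shared day or batch.

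At a minimum of 5 TPM, 0 Hox genes remained in MB1 alone and 2 in Oli-neu alone. At 0.5 TPM there were 11 in Oli-neu alone, and over protein-coding genes only 11 reached 1 TPM there. The summed Hox level was 9.81 TPM in MB1 alone and 53.1 TPM in Oli-neu alone over protein-coding genes only, and 34.8 TPM in Oli-neu alone without mitochondrially encoded genes.

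The cause of the changes of sign was not tested. With median-ratio scaling, for D341 against alone, the log2 fold change was 0.10 for Hoxa10, 0.0019 for Hoxd8, 0.063 for Hoxa13, 0.049 for Hoxa7 and 0.077 for Hoxd4. Hoxd4 there was 0.029 with a pseudocount of 0.1 TPM and 0.0085 with protein-coding genes only. For D341 against MB1 as partner, Hoxd8 was 0.082, Hoxa9 0.048 and Hoxa5 0.10 with median-ratio scaling, and Hoxd8 was 0.0082 and Hoxa5 0.0027 with protein-coding genes only. For MB1 with Oli-neu against alone, Hoxa4 was 0.031 with median-ratio scaling. With a library left out, the log2 fold changes for Oli-neu with MB1 against alone ran from -0.037 to 0.23 for Hoxa7, -0.016 to 0.36 for Hoxa3 and -0.68 to 0.42 for Hoxd4. For D341 against alone they ran from -0.048 to 0.0061 for Hoxa10, -0.095 to 0.040 for Hoxa13, -0.22 to 0.069 for Hoxa7, -0.16 to 0.22 for Hoxa3 and -0.34 to 0.31 for Hoxd4. For D341 against MB1 as partner they ran from -0.011 to 0.16 for Hoxa4, -0.12 to 0.11 for Hoxd8, -0.26 to 0.21 for Hoxa9, -0.13 to 0.12 for Hoxa5 and -0.43 to 0.67 for Hoxd4. For MB1 with Oli-neu against alone they ran from -0.21 to 0.050 for Hoxa4.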
